A study of Arabidopsis thaliana with 6 samples.

Results

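The genes described here are 42 Arabidopsis thaliana loci that make small RNAs or act with them, taken by their locus identifiers from the 32140 loci of the deposited count tables. They cover the subunits of RNA polymerases IV and V, the proteins that recruit Pol IV, the RNA-dependent RNA polymerases, the Dicer-like enzymes, all 10 ARGONAUTE genes, the effectors of RNA-directed DNA methylation and 3 genes of miRNA processing. For the 5 loci with more than 1 isoform in the files, only the isoform with most reads was taken.

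In RNA-directed DNA methylation, Pol IV transcribes silent loci, RDR2 makes the transcripts double-stranded, DCL3 cuts them into short interfering RNAs, and AGO4 and its relatives carry these to nascent Pol V transcripts, where DNA methyltransferases are recruited. Separate branches use DCL1 and AGO1 for miRNAs, and RDR6, SGS3, DCL4 and AGO7 for trans-acting small RNAs. In Arabidopsis seeds the methylation pathway is known for silencing transposons and for setting the balance between parental genomes.

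Several of these genes are themselves targets of miRNAs. The mature sequences below are shown because they pair with transcripts described here, AGO1 for miR168, DCL1 for miR162, and the neighbouring genes AGO2 and AGO3 for miR403. They come from the RefSeq annotation of TAIR10.1, run 5′ to 3′, and have the seed, bases 2 to 8, in capitals.
miR168: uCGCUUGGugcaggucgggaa
miR162: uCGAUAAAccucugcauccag
miR403: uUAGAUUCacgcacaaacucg
The 3 seeds differ from each other. The long RNA libraries are not made to count mature miRNAs. The miR162a precursor locus AT5G08185 had 26 and 30 reads in the kyp libraries, 6 in the globular library, 20 in the seed coat library, and 7 and 32 in the WT libraries. The loci of miR162b, miR168b and miR403 had 0 reads in every library, and miR168a had 1 read, in seed coat.

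The series holds 6 RNA libraries in 4 groups, all dissected by hand from plants grown in 16 h light. The kyp group has 2 libraries of 2-4 cell embryos, numbered 11 and 12, from kyp-2 mothers in the Landsberg erecta (Ler) strain crossed with Columbia-0 fathers. KYP encodes a histone H3 lysine 9 methyltransferase, and the series title gives the father a functional KYP, so these embryos are not homozygous mutants. The globular group is 1 library of wild-type embryos at the globular stage, with Ler mother and Columbia-0 father. The seed coat group is 1 library of wild-type Ler seed coat, a maternal tissue, from seeds with 2-4 cell embryos. The WT group has 2 libraries of wild-type 2-4 cell embryos, numbered 7 and 11, with Ler mother and Columbia-0 father. All embryo samples kept part of the suspensor. Kyp library 11 carries maternal genotype entries for both kyp-2 and wild type. Values of a pair follow the order kyp 11 and kyp 12, and WT 7 and WT 11. The names of kyp library 12 and WT library 11 begin with MC, a prefix whose meaning the labels do not give.

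Gene totals ranged from 1448503 reads in kyp library 11 to 4107228 in kyp library 12. The share of ribosomal RNA was 9.0% in WT library 11 and 0.804 to 1.80% in the other 5 libraries. KYP, AT5G13960, had 67 and 167 reads in the kyp libraries, 44 in globular, 77 in seed coat, and 134 and 224 in WT. The counts do not separate parental alleles, so they do not check the genotype labels. Embryo markers other than ATML1 and PDF1 summed to 180 and 132 CPM (reads scaled to a common library size) in kyp, 126 in globular, 3.99 in seed coat, and 89.7 and 197 in WT. Of these 7 markers, 4 had no read in seed coat and at most 1 had none in any embryo library. ATML1 and PDF1 had 324 and 418 CPM in seed coat, each inside the range of the embryo libraries. With them, all 9 markers summed to 757 and 1218 CPM in kyp, 3151 in globular and 746 in seed coat. In WT the 9 summed to 1653 and 1343 CPM. The 12 seed coat markers summed to 6775 and 8728 CPM in kyp, 6458 in globular, 7074 in seed coat, and 11080 and 5702 in WT, and none was at 0 in any library. The seed coat library thus lay inside the range of the embryo libraries for the sum of its own markers. Singly, BAN was above every embryo library, at 323 CPM against 111 to 231. TT8 was too, at 128.5 CPM against 55.2 to 112. Every other seed coat marker lay inside the range of the embryo libraries. STK, for instance, had 434 CPM in seed coat against 263 to 604, and INO had 23.9 against 10.6 to 47.8. The part of seed coat RNA in the results below was not tested. The 7 endosperm markers summed to 31.3 to 90.7 CPM. In bulk samples, fewer cells of a type and less RNA per cell cannot be told apart.

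Members took 0.277% and 0.344% of reads in kyp, 0.323% in globular, 0.340% in seed coat, and 0.303% and 0.333% in WT. A read was found in every library for 40 of the 42, and 31 had at least 20 reads in every library. The exceptions with a library at 0 were CLSY2 and AGO8. Levels of one gene between libraries are given as CPM scaled by the TMM method. Levels of different genes are compared as CPM per kb of transcript, averaged over the 4 groups with equal weight. On that scale 40 of the 42 lay above the median of all 32140 loci. That median is low, since 17835 to 20677 of the loci had a read in a given library. AGO6 was just above it, at percentile 51.4. SGS3, AT5G23570, which stabilises the RNA template of RDR6, was highest at 156 CPM per kb, followed by IDN2 at 90.6, CLSY3 at 75.9, AGO4 at 68.1 and FDM1 at 66.2. CLSY2 was lowest at 0.381 CPM per kb and AGO8 was next at 0.853.

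**Figure D1:**
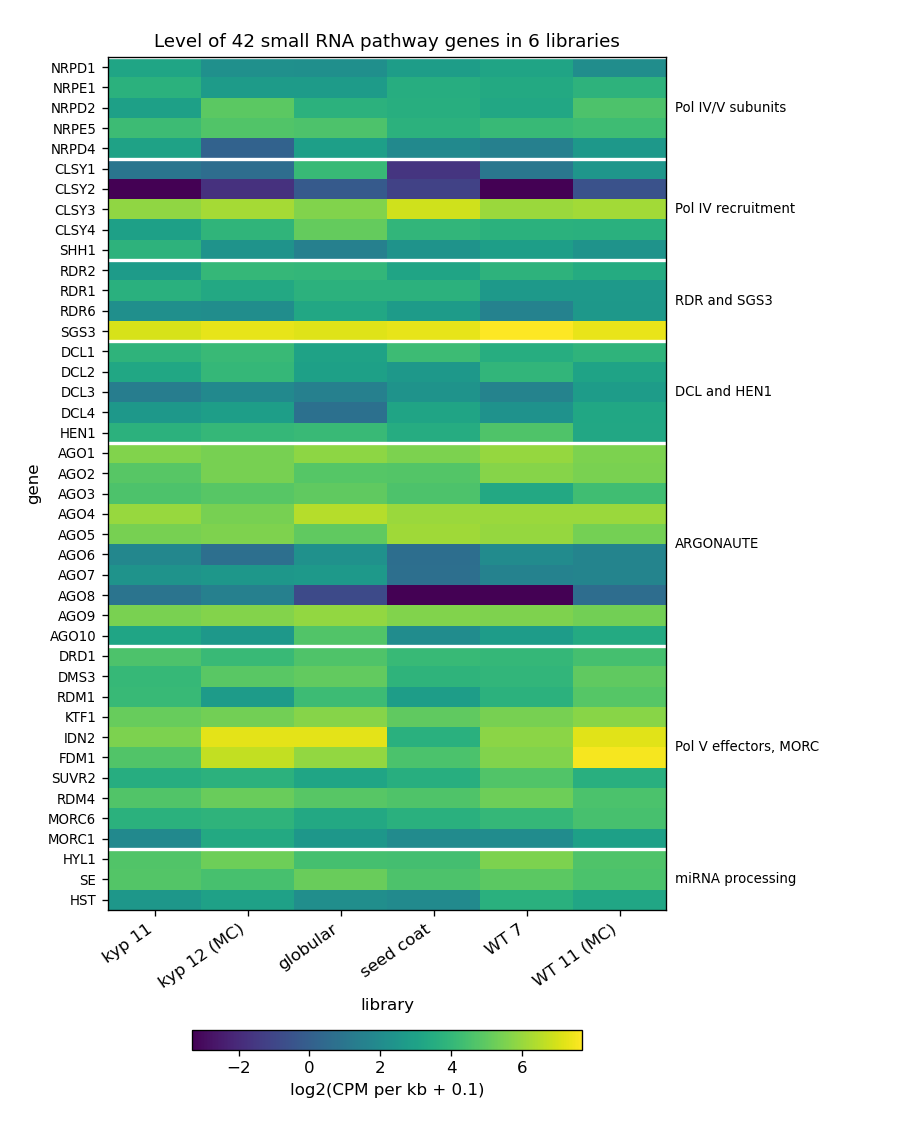
Level of each of the 42 genes (rows, grouped by role) in each of the 6 libraries (columns), as log2 of CPM per kb plus 0.1. SGS3 is bright in every library, at 129 and 157 CPM per kb in kyp, 141 in globular, 156 in seed coat, and 207 and 159 in WT. CLSY2 is the darkest row, at 0 to 0.779 CPM per kb.

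Among members with a mean of at least 20 reads, the 4 largest differences from WT in globular embryos were those of CLSY1, AGO10 and CLSY4, at higher levels than in WT, and of DCL4, at a lower level. In seed coat they were those of CLSY1, IDN2, FDM1 and RDM1, all at lower levels. In kyp embryos they were those of CLSY1 and FDM1, on the low side, and RDR1 and AGO7, on the high side. None passed the threshold: no member was called in any of the 3 comparisons with WT 2-4 cell embryos at an adjusted p of 0.05 (edgeR quasi-likelihood test, Benjamini-Hochberg over all genes tested). Of the 42, 40 passed the filter on low counts in each comparison, and NRPD4 and CLSY2 did not. In kyp, 0 of 40 were called, against 0.0313% of all 15997 genes, and 0 had an unadjusted p under 0.05, against 5.09% of genes. In globular, 0 of 40 were called, against 1.16% of 17706 genes, and 5 had an unadjusted p under 0.05 (12.5%, against 11.3% of genes). In seed coat, 0 of 40 were called, against 0.785% of genes, and 3 had an unadjusted p under 0.05 (7.5%, against 9.52% of genes). DESeq2 also called 0 in each. The smallest called change of any gene was 4.26 on the log2 scale in kyp, 1.82 in globular and 1.90 in seed coat, and no gene with a smaller change was called in that comparison. A member that was not called may still differ, since most 4-fold changes in simulated data were not called. The labels do not say that libraries came from separate plants, so p-values speak only of the variation among these libraries, and that variation may be technical. Reads carry no molecular identifiers and are not independent molecules, so a floor from reads covers counting error only.

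Among kyp and WT embryos the median log2 fold change of the 40 members was -0.12, beside 0.00 for all genes, with 14 members positive and 26 negative. In globular embryos it was -0.079, beside -0.12 for all genes, with 19 positive and 21 negative. In seed coat it was -0.46, beside 0.00 for all genes, with 12 positive and 28 negative. The share of positive values in the 3 comparisons was 35%, 47.5% and 30.0% for members and 49.9%, 44.6% and 49.5% for all genes. The comparisons share the WT libraries. Leaving out 1 library moved the seed coat median to -0.27 (WT library 7) or -0.32 (WT library 11), the globular median to 0.25 without WT library 11, and the kyp median to -0.26 without kyp library 12. With AGO8, which had no read in seed coat, set to the floor of 3 reads, the seed coat median was -0.44.

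**Figure D2:**
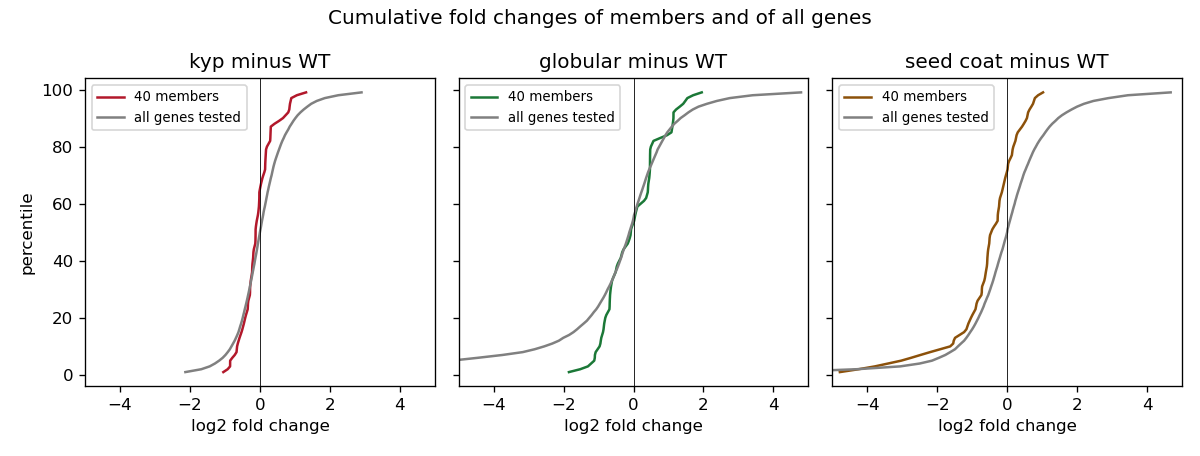
Cumulative log2 fold changes (x axis) by percentile (y axis) of the 40 tested members, coloured, and of all genes tested, grey, for kyp, globular and seed coat, each minus WT. The seed coat curve of members lies left of the grey curve through its middle, with medians of -0.46 for members and 0.00 for all genes.

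NRPD1, AT1G63020, the largest subunit of Pol IV, had 44.0 and 22.4 CPM in kyp, 21.8 in globular, 34.1 in seed coat, and 42.7 and 20.5 in WT. NRPE1, AT2G40030, the largest subunit of Pol V, had 83.4 and 40.9 CPM in kyp, 41.3 in globular, 72.2 in seed coat, and 64.9 and 86.5 in WT. The kyp libraries alone spanned nearly the whole range of both genes, and neither gene separated kyp from WT. Per length, NRPE1 averaged 9.79 ± 4.74 CPM per kb in kyp and 11.9 ± 2.40 in WT (SD, n = 2 each), and NRPD1 averaged 6.71 ± 3.09 in kyp and 6.39 ± 3.17 in WT.

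NRPD2, AT3G23780, the second-largest subunit shared by both polymerases, had 30.2 and 118 CPM in kyp, 53.7 in globular, 46.5 in seed coat, and 38.0 and 95.8 in WT. The high libraries were kyp 12 and WT 11, the pair with the MC prefix, and the others lay below both. NRPE5, AT3G57080, a Pol V subunit that overlaps an antisense gene, had 11.5 CPM in seed coat, below the 14.5 to 21.9 CPM of the 5 embryo libraries. NRPD4, AT4G15950, a small subunit of both polymerases, had only 2 to 10 reads per library.

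Pol IV reaches its loci through SHH1 and the CLASSY chromatin remodellers, which act at different sets of loci and in different tissues. CLSY3, AT1G05490, known for directing small RNA production in ovules, was the most abundant CLASSY transcript in every library. CLSY3 had 266 and 342 CPM in kyp, 227 in globular, 548 in seed coat, and 305 and 329 in WT. The seed coat value was the highest of the 6 and the globular value the lowest, with kyp and WT overlapping. Of the summed CPM per kb of the 4 CLASSY genes, CLSY3 made 86.0% and 81.9% in kyp, 48.8% in globular, 88.4% in seed coat, and 81.4% and 79.4% in WT.

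CLSY1, AT3G42670, which acts broadly in vegetative tissue, had 7.23 and 5.6 CPM in kyp, 66.1 in globular, 0.886 in seed coat, and 7.69 and 21.1 in WT. In reads these values were 11 and 23 in kyp, 112 in globular, 2 in seed coat, and 18 and 75 in WT. The globular library was above all 5 others and the seed coat library below all 5, and both kyp libraries were below both WT libraries. On the log2 scale CLSY1 differed from WT by -1.17 (SE 0.85, adjusted p = 1.00) in kyp, 2.20 (SE 0.80, adjusted p = 0.271) in globular and -3.94 (SE 1.20, adjusted p = 0.178) in seed coat, each by edgeR. These values rest in part on WT library 11, without which they were -0.26 in kyp, 3.11 in globular and -3.02 in seed coat. Without WT library 7 they were -1.72 in kyp, 1.66 in globular and -4.48 in seed coat. The seed coat value also rests on 2 reads, and it passed the threshold only without WT library 7, with an adjusted p of 0.0313 in a range of 0.0313 to 0.262 over the alternatives.

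CLSY4, AT3G24340, the partner of CLSY3 in a shared set of loci, had 25.6 and 50.2 CPM in kyp, 116 in globular, 51.0 in seed coat, and 44.9 and 42.7 in WT. No other library reached the globular value, which was 1.41 above WT on the log2 scale (SE 0.54, edgeR adjusted p = 0.305). CLSY2, AT5G20420, had 0 and 3 reads in kyp, 5 in globular, 3 in seed coat, and 0 and 8 in WT, too few to be tested. SHH1, AT1G15215, a reader of histone H3 lysine 9 methylation that recruits Pol IV, had 15.1 and 5.36 CPM in kyp, 2.95 in globular, 5.32 in seed coat, and 7.69 and 5.34 in WT. Its reads numbered 5 to 23 per library, and it overlaps a gene on the opposite strand.

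**Figure D3:**
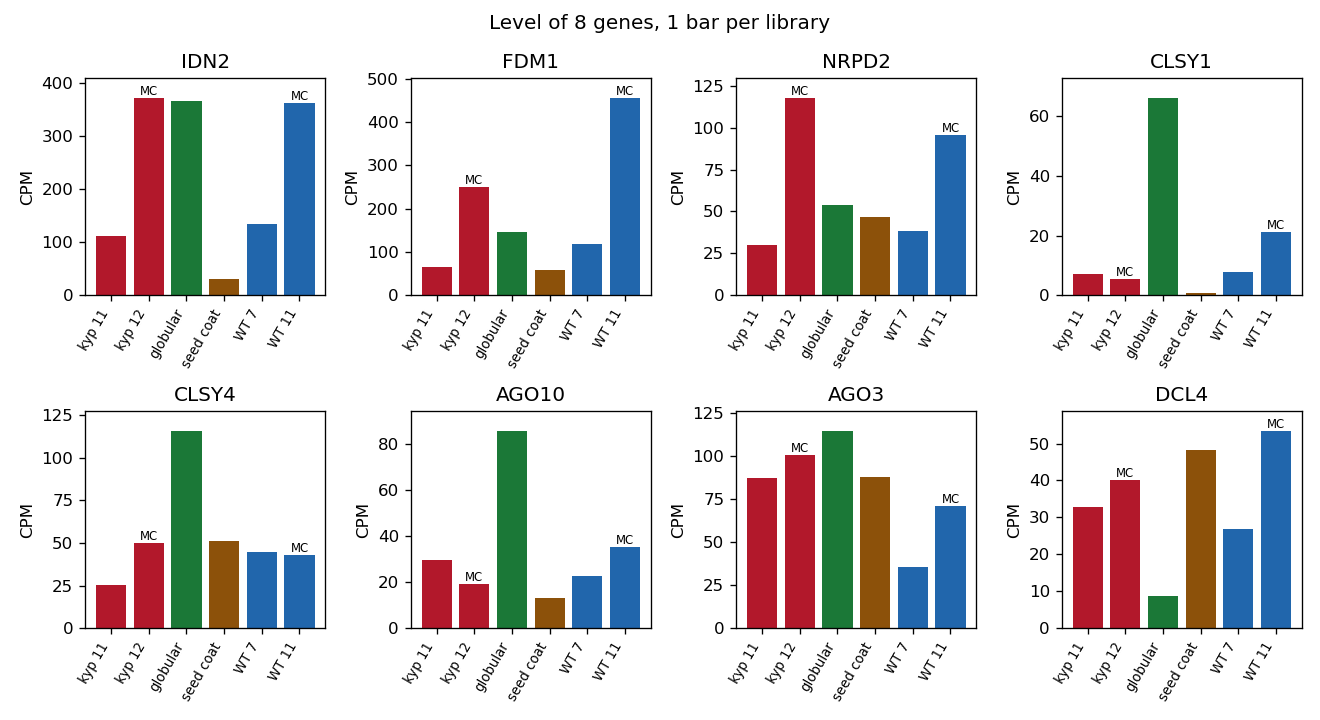
TMM-scaled CPM (y axis) in each library (1 bar each, kyp red, globular green, seed coat brown, WT blue) for 8 members. MC marks kyp library 12 and WT library 11, which are the highest of their own groups for IDN2, FDM1 and NRPD2. CLSY1, CLSY4 and AGO10 are highest in globular, and DCL4 is lowest there.

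RDR2, AT4G11130, which converts Pol IV transcripts into double-stranded RNA, had 22.3 and 55.8 CPM in kyp, 53.7 in globular, 29.7 in seed coat, and 47.4 and 37.6 in WT. No group stood apart for RDR2. RDR1, AT1G14790, known for antiviral small RNAs, had 48.0 and 38.2 CPM in kyp, 50.8 in globular, 51.4 in seed coat, and 22.6 and 23.6 in WT. Both WT libraries were below every other library for RDR1. In kyp the log2 difference from WT was 0.90 (SE 0.49, edgeR adjusted p = 1.00), with kyp higher within both pairs of libraries of equal prefix. RDR1 overlaps an antisense gene, and without strand its reads are uncertain. RDR6, AT3G49500, the polymerase of the trans-acting small RNA branch, had 15.8 and 14.9 CPM in kyp, 34.2 in globular, 23.5 in seed coat, and 10.3 and 20.8 in WT.

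The Dicer-like enzymes cut double-stranded RNA to set lengths. DCL1, AT1G01040, which processes miRNA precursors, had 88.7 and 109 CPM in kyp, 50.2 in globular, 117 in seed coat, and 73.0 and 87.9 in WT. DCL1 was lowest in globular and highest in seed coat, and its kyp libraries lay just above the WT ones. DCL2, AT3G03300, an antiviral Dicer, had 44.7 and 78.4 CPM in kyp, 36.6 in globular, 27.5 in seed coat, and 73.0 and 39.9 in WT. DCL3, AT3G43920, the Dicer of RNA-directed DNA methylation, was the least abundant of the 4 per length at 3.88 CPM per kb. DCL3 had 11.2 and 16.8 CPM in kyp, 12.4 in globular, 22.6 in seed coat, and 13.7 and 30.9 in WT, with every group inside the range of WT or just below it. DCL1 and DCL3 overlap antisense genes and DCL2 a neighbour on its own strand.

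DCL4, AT5G20320, which makes trans-acting small RNAs, had 50 and 165 reads in kyp, 15 in globular, 109 in seed coat, and 63 and 190 in WT. As CPM these were 32.9 and 40.2 in kyp, 8.85 in globular, 48.3 in seed coat, and 26.9 and 53.4 in WT. The globular library was below every other, with a log2 difference from WT of -2.17 (SE 0.75, edgeR adjusted p = 0.233). HEN1, AT4G20910, the methyltransferase that protects the ends of small RNAs, had 42.04 and 50.2 CPM in kyp, 54.3 in globular, 35.01 in seed coat, and 79.0 and 29.8 in WT. Of these 5 enzymes, 4 had negative values in globular, where 44.6% of all genes were positive.

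ARGONAUTE proteins load the small RNAs. AGO4, AT2G27040, AGO6, AT2G32940, AGO8, AT5G21030, and AGO9, AT5G21150, form the clade tied to DNA methylation, and together made 41.7% and 36.2% of summed ARGONAUTE CPM per kb in kyp, 46.3% in globular, 40.03% in seed coat, and 37.2% and 39.7% in WT. AGO4 had 199 and 138 CPM in kyp, 284 in globular, 205 in seed coat, and 207 and 206 in WT. Globular was the highest library for AGO4, and both kyp libraries lay below both WT libraries. AGO9, known from ovules, where it acts in the tissue around the gamete-forming cells, had 136 and 153 CPM in kyp, 181 in globular, 145 in seed coat, and 141 and 121 in WT.

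AGO6 had 9.85 and 4.63 CPM in kyp, 14.2 in globular, 4.43 in seed coat, and 11.5 and 8.99 in WT. AGO8, which is close in sequence to AGO9 and often regarded as a pseudogene, had 7 and 28 reads in kyp, 2 in globular, 0 in seed coat, and 0 and 13 in WT. Its 0 reads in seed coat allow a level of up to 1.33 CPM, and its WT mean was 1.83 CPM. At 3.01 CPM per kb, AGO6 was lower than AGO4 and AGO9, at 68.1 and 49.8 CPM per kb.

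AGO1, AT1G48410, the main miRNA effector and itself a target of miR168, had 170 and 153 CPM in kyp, 196 in globular, 160 in seed coat, and 219 and 162 in WT. AGO1 averaged 46.1 ± 3.47 CPM per kb in kyp and 54.3 ± 11.6 in WT (SD, n = 2 each), a difference smaller than the spread of WT. AGO5, AT2G27880, of the AGO1 clade and known from germline cells, had 135 and 149 CPM in kyp, 102 in globular, 219 in seed coat, and 195 and 133 in WT. AGO5 was highest in seed coat and lowest in globular, with kyp and WT overlapping.

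AGO10, AT5G43810, which sequesters miR165 and miR166 and maintains the shoot meristem, had 45 and 78 reads in kyp, 145 in globular, 30 in seed coat, and 53 and 126 in WT. As CPM these were 29.6 and 19.0 in kyp, 85.6 in globular, 13.3 in seed coat, and 22.6 and 35.4 in WT. Globular was above all others and seed coat below all others. The globular value of AGO10 exceeded WT by 1.57 on the log2 scale (SE 0.61, edgeR adjusted p = 0.311).

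AGO2, AT1G31280, and AGO3, AT1G31290, are neighbouring genes and both targets of miR403, whose sequence is given above. AGO2, an antiviral ARGONAUTE, had 95.9 and 146 CPM in kyp, 92.7 in globular, 88.2 in seed coat, and 175 and 150 in WT. AGO3 had 87.4 and 101 CPM in kyp, 115 in globular, 87.7 in seed coat, and 35.5 and 70.8 in WT. AGO2 was higher in both WT libraries than in the other 4 and AGO3 lower, so the neighbours lay on opposite sides of WT in kyp, globular and seed coat. For AGO3 the log2 difference of globular from WT was 1.11 (SE 0.52, edgeR adjusted p = 0.431), and 1.70 without WT library 11.

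AGO7, AT1G69440, the partner of miR390 in the trans-acting branch, had 15.8 and 17.5 CPM in kyp, 19.5 in globular, 4.88 in seed coat, and 8.97 and 9.55 in WT. Globular and kyp libraries were above both WT libraries and seed coat below them. In kyp AGO7 differed from WT by 0.86 on the log2 scale (SE 0.71, edgeR adjusted p = 1.00), on 21 to 72 reads per library.

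**Figure D4:**
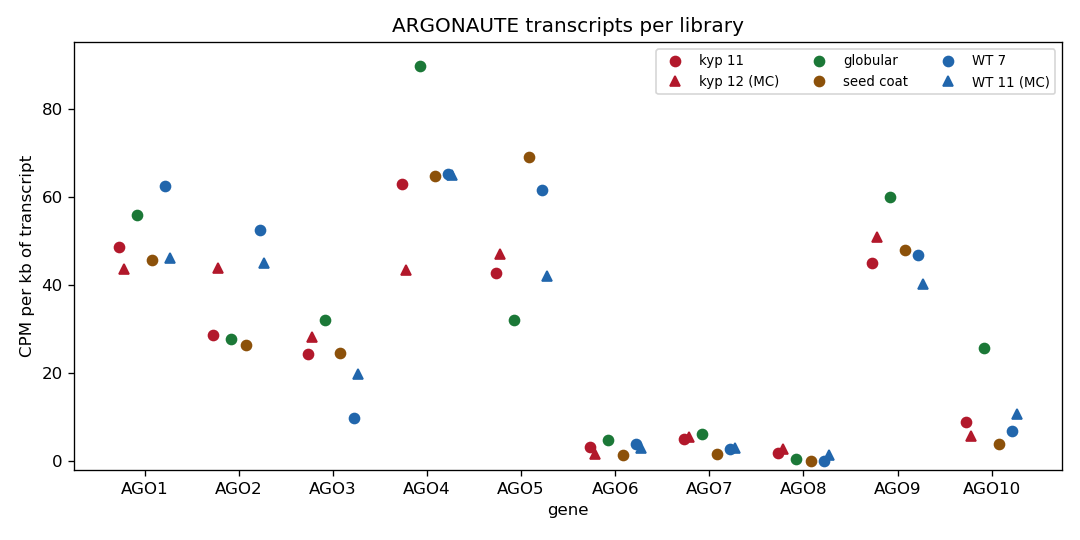
CPM per kb of transcript (y axis) of the 10 ARGONAUTE genes (x axis) in each library, circles without and triangles with the MC prefix, kyp red, globular green, seed coat brown and WT blue. AGO10 is highest in globular, at 25.7 CPM per kb, and AGO3 is lowest in the WT libraries.

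Pol V transcription depends on DRD1, DMS3 and RDM1. DRD1, AT2G16390, a chromatin remodeller, had 65.0 and 47.5 CPM in kyp, 67.9 in globular, 46.1 in seed coat, and 42.3 and 57.6 in WT. DMS3, AT3G49250, a hinge protein that bridges the complex, had 30.2 and 53.3 CPM in kyp, 59.0 in globular, 25.7 in seed coat, and 27.8 and 57.9 in WT. RDM1, AT3G22680, which binds single-stranded methylated DNA, had 11.8 and 4.63 CPM in kyp, 13.0 in globular, 4.88 in seed coat, and 9.40 and 19.7 in WT. Kyp and WT overlapped for all 3 genes, DRD1 and DMS3 were highest in globular by small steps, and DMS3 was lowest in seed coat. RDM1 in seed coat differed from WT by -1.56 on the log2 scale (SE 1.15, edgeR adjusted p = 0.825), on 11 reads in seed coat. It was -0.92 without WT library 11 and -1.98 without WT library 7. All 3 genes overlap antisense genes.

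KTF1, AT5G04290, which bridges AGO4 and Pol V, had 158 and 181 CPM in kyp, 231 in globular, 144 in seed coat, and 194 and 238 in WT. Seed coat was lowest and both kyp libraries were below both WT libraries. The means were 169.5 ± 16.8 CPM in kyp and 216 ± 31.2 CPM in WT (SD, n = 2 each).

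IDN2, AT3G48670, a double-stranded RNA binding protein that works with the FDM proteins downstream of AGO4, had 169 and 1527 reads in kyp, 621 in globular, 70 in seed coat, and 314 and 1290 in WT. As CPM these were 111 and 372 in kyp, 367 in globular, 31.0 in seed coat, and 134 and 362 in WT. Seed coat was below every embryo library and each library with MC was above the other library of its genotype. Seed coat differed from WT by -2.98 on the log2 scale (SE 0.76, edgeR adjusted p = 0.0839), which missed the threshold in that fit. It passed with no filter on low counts or with the name prefix as a block, with edgeR adjusted p of 3.69e-05 and 0.0204. It also passed without kyp library 11 or kyp library 12, which are not part of this difference. The difference itself stayed at -2.98 and -2.97 without them. Without WT library 7 it passed too, at -3.52. Over all alternatives its adjusted p reached 0.252. The difference itself was -2.09 without WT library 11 and -2.02 with the prefix as a block. IDN2 shares 404 bases at 96.5% identity with AT4G01780, which had 1 read in kyp library 12 and 0 in the others.

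FDM1, AT1G15910, a partner of IDN2, had 98 and 1028 reads in kyp, 249 in globular, 131 in seed coat, and 279 and 1621 in WT. As CPM these were 64.4 and 250 in kyp, 147 in globular, 58.1 in seed coat, and 119 and 455 in WT. The high libraries were again those with MC, and seed coat was the lowest of the 6. FDM1 differed from WT on the log2 scale by -2.29 (SE 0.81, edgeR adjusted p = 0.281) in seed coat and -0.85 (SE 0.65, edgeR adjusted p = 1.00) in kyp. The seed coat value passed the threshold without the filter on low counts, at an edgeR adjusted p of 0.00327, and had 0.625 with DESeq2. It also passed without kyp library 11 or kyp library 12, which are not part of this difference, and stayed at -2.28 without either. Without WT library 7 it passed too, at -2.95. The seed coat value was -1.02 without WT library 11, and also with the prefix as a block. In kyp the value was 0.41 without WT library 11, and it passed the threshold without kyp library 12, at -2.13 with an adjusted p of 0.0341, in a range up to 1.00. FDM1 shares 2010 bases at 95.4% identity with its paralogue FDM2, AT4G00380, and reads of the pair may have been split, so its value is uncertain. FDM2 had 74 and 574 reads in kyp, 58 in globular, 73 in seed coat, and 136 and 527 in WT, again most in the libraries with MC.

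The remaining effectors varied less between libraries than IDN2 and FDM1. SUVR2, AT5G43990, a SET-domain protein that works with chromatin remodellers, had 30.2 and 35.3 CPM in kyp, 23.0 in globular, 31.5 in seed coat, and 67.9 and 32.0 in WT. SUVR2 overlaps an antisense gene, so its reads are uncertain. RDM4, AT2G30280, a factor that assists RNA polymerases, had 35.5 and 48.5 CPM in kyp, 39.0 in globular, 34.1 in seed coat, and 51.7 and 32.0 in WT. MORC6, AT1G19100, a GHKL ATPase that compacts chromatin, had 34.2 and 37.5 CPM in kyp, 26.0 in globular, 33.2 in seed coat, and 41.9 and 57.6 in WT. MORC6 was lower in kyp than in WT in both pairs. MORC1, AT4G36290, had 7.88 and 22.2 CPM in kyp, 11.8 in globular, 8.42 in seed coat, and 8.54 and 16.3 in WT. All 10 genes of this role had negative values in seed coat, where 49.5% of all genes were positive, and none was called. DRD1 and RDM4 lay between the 2 WT libraries there. All 10 were negative with RLE size factors and DESeq2 too, and 9 of 10 at equal depth or with the prefix as a block. These alternatives rest on the same single seed coat library.

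The miRNA processing genes also had only negative values in kyp and in seed coat, 3 of 3 in each. Of all genes, 49.9% were positive in kyp and 49.5% in seed coat, and of the 40 members 26 were negative in kyp. HYL1, AT1G09700, the double-stranded RNA binding partner of DCL1, had 43.4 and 63.8 CPM in kyp, 36.6 in globular, 35.5 in seed coat, and 76.9 and 42.1 in WT. SE, AT2G27100, a zinc finger protein of the same complex, had 67.7 and 55.8 CPM in kyp, 89.1 in globular, 60.3 in seed coat, and 76.5 and 59.0 in WT. HST, AT3G05040, the exportin-5 relative of miRNA transport, had 21.7 and 30.7 CPM in kyp, 16.5 in globular, 14.6 in seed coat, and 49.1 and 35.7 in WT. HST was lower than both WT libraries in every other library, and for HYL1 and SE the kyp and WT libraries overlapped. In kyp the log2 difference from WT was -0.13 for HYL1 and -0.12 for SE. Within the pairs of equal prefix, that of HYL1 was -0.81 without MC and 0.59 with MC. HYL1 was below both WT libraries in globular and in seed coat, and SE was above both in globular. In seed coat SE lay between the 2 WT libraries. HYL1 overlaps a neighbour on its own strand, so its reads are uncertain.

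**Figure D5:**
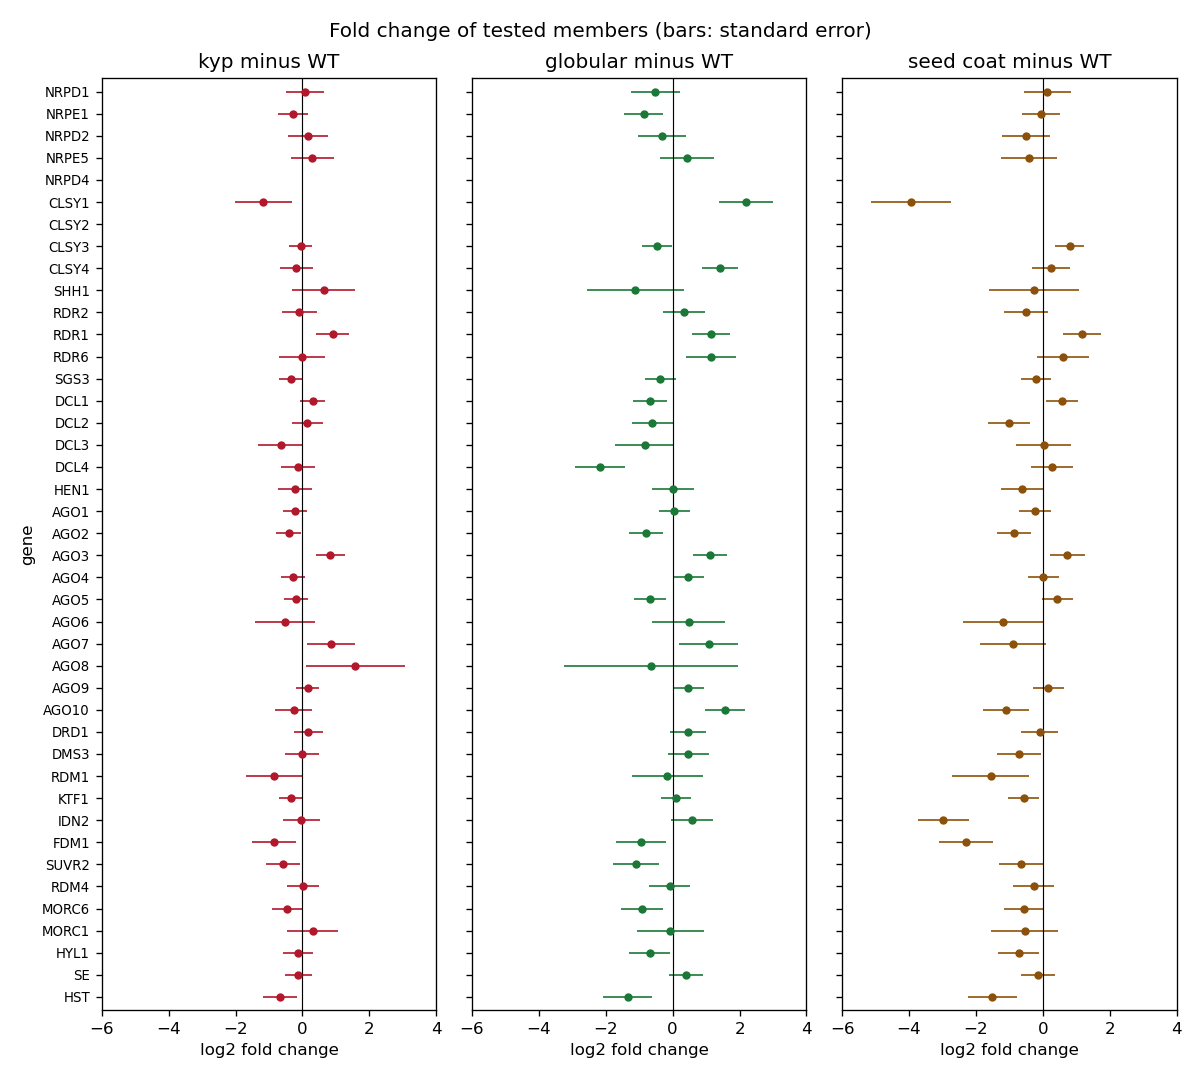
Log2 fold change with its standard error (x axis) of each tested member (rows, in the order of roles above) for kyp, globular and seed coat, each minus WT by edgeR. AGO8, which had no read in seed coat, is not drawn in that panel, and NRPD4 and CLSY2 were not tested. CLSY1 lies at 2.20 in globular and -3.94 in seed coat, and no member was called.

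The 2-4 cell libraries of kyp and WT did not overlap for 12 of 40 members (30.0%), against 33.1% of all genes. The 5 higher in kyp were DCL1, RDR1, AGO3, AGO7 and AGO8, and the 7 lower were MORC6, AGO2, AGO4, HST, CLSY1, KTF1 and SGS3. The seed coat library was lower than all 5 embryo libraries for 13 of 40 members (32.5%), against 16.7% of genes, and higher than all 5 for 4 (10%), against 16.6%. The 13 were NRPE5, CLSY1, DCL2, AGO2, AGO6, AGO7, AGO10, DMS3, KTF1, IDN2, FDM1, HYL1 and HST, and the 4 were CLSY3, RDR1, DCL1 and AGO5. The globular library was lower than all 4 libraries of 2-4 cell embryos for 11 members (27.5%), against 25.4% of genes, and higher than all 4 for 13 (32.5%), against 23.4%. Of the 13 higher in globular, 6 were ARGONAUTE genes, AGO3, AGO4, AGO6, AGO7, AGO9 and AGO10. A single library stands behind each seed coat and globular count.

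Libraries with the MC prefix, kyp 12 and WT 11, were compared with kyp 11 and WT 7 in a model with genotype, a comparison added after the counts were seen. FDM1 was called there, 1 of 40 members, against 0.225% of all 15997 genes, and 3 members had an unadjusted p under 0.05 (7.5%, against 5% of genes). FDM1 was higher with MC by 1.93 on the log2 scale (SE 0.35, edgeR adjusted p = 0.0175), and by 1.97 with an adjusted p of 0.0594, the highest of its alternatives, when all libraries were thinned to equal depth. The adjusted p was 0.0289 with FDM1 and FDM2 summed as 1 gene. The lowest was 0.000108, without the filter on low counts. IDN2 had 1.57 (SE 0.34, edgeR adjusted p = 0.0959), NRPD2 had 1.62 (SE 0.43, edgeR adjusted p = 0.346) and MORC1 had 1.19 (SE 0.77, edgeR adjusted p = 0.999). At equal depth the values were 1.67 for IDN2, 1.44 for NRPD2 and 0.62 for MORC1. The MC and other libraries did not overlap for 14 members (35%), against 34.7% of genes. The libraries with MC hold more reads, 4107228 in kyp and 3906315 in WT, against 1448503 in kyp and 2497236 in WT without it.

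Within the pairs of equal prefix, kyp minus WT had the same sign for 20 of 40 members (50%), against 50.3% of all genes. The replicate difference had a median size of 0.47 (log2) for members between the kyp libraries, against 0.54 for all genes. Between the WT libraries it was 0.50 for members, against 0.61 for all genes.

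Other genes of the pathways, 33 taken from a list outside the 42, were counted in the same fits. In kyp 0 of 29 tested were called, against 0.0313% of all genes, with 13 positive and 16 negative, and 0 had an unadjusted p under 0.05. In seed coat 0 of 31 were called, against 0.785% of all genes, with 6 positive and 25 negative. There SDE3, NERD, DRB3, FDM2, MORC5 and SDN3 had an unadjusted p under 0.05, 6 of 31, against 9.52% of genes. DESeq2 called 0 in kyp and 1 in seed coat, SDN3, an exonuclease that degrades small RNAs. In seed coat it gave an adjusted p for only 22 of these genes. In globular 1 of 31 was called, against 1.16% of all genes, with 10 positive and 21 negative, and RDR5, DRB3, FDM2 and DRB5 had an unadjusted p under 0.05, 4 of 31, against 11.3% of genes. The called gene was DRB3, AT3G26932, a double-stranded RNA binding protein, with 6 and 15 reads in kyp, 114 in globular, 42 in seed coat, and 7 and 7 in WT. DRB3 was higher in globular by 4.77 on the log2 scale (SE 0.85, edgeR adjusted p = 0.00891).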

How the data were processed

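Total RNA of 6 libraries was amplified linearly and sequenced on SOLiD adaptors, per the labels' protocols. The deposited files list a read count for each transcript isoform, per the file headers. In WT library 11 and kyp library 12 the deposited values include fractional reads of 0.5, so those estimated counts were rounded upward. The aligner, genome build and annotation are not given in the sources used here, so no coordinates are printed.

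Each locus was represented by 1 isoform, that with most reads summed over libraries. Testing used edgeR 4.0.16 in R 4.3.3, with library sizes scaled by TMM, low genes removed by filterByExpr at a minimum count of 10, and its quasi-likelihood F test. P-values were Benjamini-Hochberg adjusted over all genes tested, with a threshold of 0.05, and the procedure was tested on simulated data. There, 4-fold changes were called for 14% of altered genes in kyp, 2% in globular and 4% in seed coat. For 16-fold changes these shares were 89%, 54% and 49%. Each share is of 100 genes. The kyp comparison used 4 libraries. Globular and seed coat were each compared with WT in 1 fit over all 6, so a lone library is assumed to vary like the pairs. Each fit of groups had 2 residual degrees of freedom, and the prefix fit had 1. A standard error is the log2 fold change divided by the root of F. DESeq2 1.42.0 was an alternative.

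The members and lists were chosen with earlier results of these data known. Fold changes are given for members past the threshold, for those with the 4 largest changes at a mean of at least 20 reads, and for those with an unadjusted p under 0.05 in the comparison, the last chosen after values were seen. Names of CLSY2, CLSY3, CLSY4 and AGO8 come from general knowledge, not from the annotation. By RefSeq TAIR10.1, 9 members overlap an antisense gene, 2 a gene on their own strand, and by blastn 2.17.0 2 share at least 50 bases at 95% identity with another gene. Whether strand was kept is not stated in the protocol, so counts of these members are uncertain.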

Additional observations from a re-analysis of the deposited data

How the results depend on the processing

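Sample numbers do not pair the libraries, since kyp and WT share only number 11, and the block used here is the name prefix, which puts kyp 11 with WT 7 and kyp 12 with WT 11. The counts of called members in kyp and globular stayed at 0 under DESeq2, RLE size factors, no filter on low counts, summed isoforms, equal depth and the prefix as a block. Leaving out 1 library gave 0 to 1 in kyp (FDM1, without kyp library 12), 0 in globular and 0 to 3 in seed coat (CLSY1, FDM1 and IDN2 without WT library 7). Seed coat had 2 called without the filter (FDM1 and IDN2) and 1 with the prefix as a block (IDN2). The prefix comparison had 2 called with DESeq2 and 2 without the filter (FDM1 and IDN2 in both), and 0 at equal depth. No library could be left out of it, for want of residual degrees of freedom.

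The member median of the log2 fold change without 1 library ran from -0.26 to -0.10 in kyp, from -0.082 to 0.25 in globular and from -0.45 to -0.27 in seed coat. At equal depth it was 0.12 in globular and -0.28 in seed coat, and with the prefix as a block 0.18 and -0.30. The sign of the globular median therefore turns. The 17 named fold changes kept direction and side of the threshold in 142 of 157 alternatives, passed it in 13 and lost it in 1. Of the 17, only FDM1 in the prefix comparison was called to begin with, so most of the 142 were changes that stayed uncalled. RDM1 in seed coat had no adjusted p with DESeq2 and was counted as kept. FDM1 in kyp turned to 0.41 without WT library 11, with a range of -2.13 to 0.41. Where these values moved, the cause was not tested.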
